A study of Drosophila melanogaster with 9 samples.

Results

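The ecdysone receptor genes and a set of ecdysone response genes were followed in Drosophila melanogaster brains across adult age. Members were all probe sets to which the platform annotation gives 1 gene symbol, where that symbol is EcR, usp, Eip75B, Eip78C, Eip93F, Eip63E, Eip71CD, br or ftz-f1. The rule found 13 probe sets of 7 genes among the 18952 probe sets of the array, 5 of them for br, 2 each for ftz-f1 and Eip93F, and 1 each for EcR, usp, Eip78C and Eip63E. No probe set carried the symbols Eip75B or Eip71CD. The gene once called Eip71CD is now named MsrA, and the 1 probe set annotated as MsrA is described beside the members but is not counted among them. Eip75B was not analysed here.

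RNA came from dissected brains of flies that had aged naturally on cornmeal molasses food, and was hybridised to 9 Affymetrix Drosophila 2.0 arrays. There were 3 arrays each at 3, 30 and 60 days (3d, 30d and 60d). No genotype, strain or sex is stated in the labels, and they do not say whether a replicate was 1 pool of brains or a separate cohort, so the p-values cover the scatter among these 9 arrays, which may be technical. Levels are given as the deposited linear signal, whose trimmed mean was the same on every array, and changes as differences of log2(signal + 1) with the standard error (SE) from limma.

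Ecdysone is the steroid hormone that times moulting and metamorphosis in insects. Its active, hydroxylated form binds a heterodimer of the nuclear receptors EcR and Usp, which switches on early genes, many of them transcription factors such as Broad and the E75 and E78 nuclear receptors, and these in turn control later genes. Adult flies keep making ecdysone, and in the adult brain the pathway has been linked to sleep, courtship and memory.

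Few of the pathway's receptors and response factors passed the test for a difference with age in these brains, and the largest difference among the tested members was 0.47 on the log2 scale. Transcripts of usp and Eip63E fell in 30d brains compared with 3d brains, by 0.45 ± 0.16 and 0.35 ± 0.13 (SE, with limma, adjusted p = 0.0429 and 0.045). These calls were lost in 10 and 9 of 19 alternative fits. No tested member passed in 60d against 3d or in 60d against 30d, where 13.6% and 0.368% of all tested probe sets were called. In 30d against 3d that share was 44.3%.

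A change was called where its adjusted p was under 0.05, with adjustment over the 12226 probe sets that had at least 3 arrays above 5.73 on the log2 scale. Of the 13 member probe sets 10 passed this filter, each on all 9 arrays. The Eip78C probe set and the br probe sets 1636931_at and 1629683_at did not. In the 30d against 3d comparison 44.3% of all tested probe sets were called, and 2 of 10 members were. The GAPDH control, whose probe sets at the 3' and 5' ends of the transcript report on RNA integrity, had a log2 end-to-end ratio of 5.06 on 3d replicate 1, against 1.58 to 2.07 on the other 8 arrays. That array gave the lowest of the 9 signals for 6 of the 13 member probe sets and for 20.6% of all tested probe sets, and 3d replicate 3, with a GAPDH ratio of 2.04, for 4 members and 29.6% of all. The 6 include br 1629683_at and Eip78C, and the 4 include br 1636931_at. These sets did not pass the filter, whereas both percentages cover only sets that did. The median signal per array was 76.1 to 78.3 at 30d, against 60.6 to 67.6 at 3d. Over all tested probe sets the median change in 30d against 3d was 0.19, with 0.07 after quantile normalization and -0.09 when each array was centred on its median. It was 0.34 with no filter, 0.05 with a stricter filter (at least 3 arrays above 6.68 on the log2 scale) and -0.02 with only the brightest probe set of each gene. The median was thus higher where dimmer probe sets were counted.

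**Figure D1:**
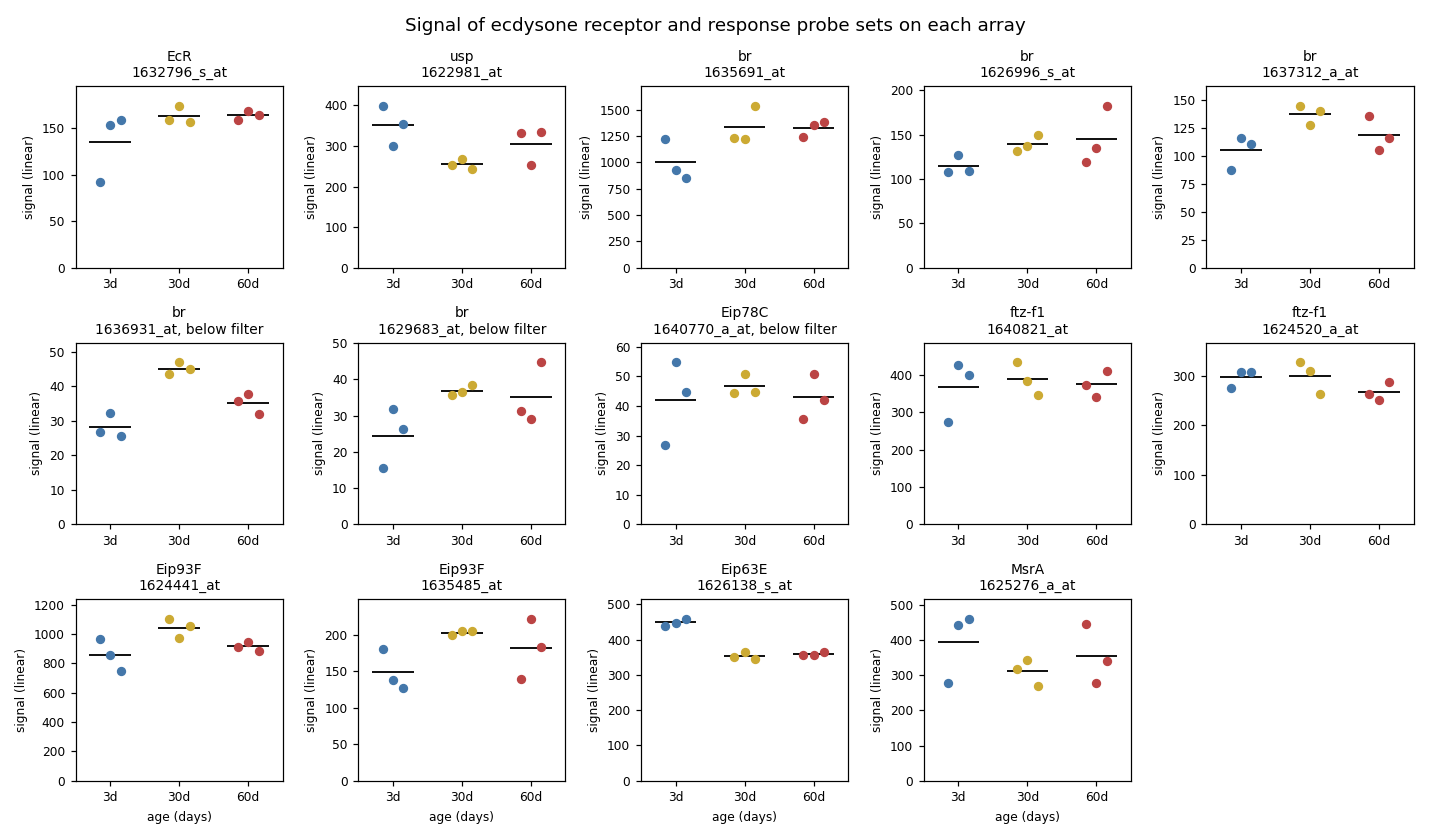
Linear signal of each member probe set, and of MsrA, on the 9 arrays, plotted by age in days. Points are arrays, drawn from replicate 1 to 3 within an age, and bars are means of 3 arrays. The 3 Eip63E points at 3d sit between 438 and 460, above all 6 points of the later ages.

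EcR encodes the subunit that binds the hormone. Its probe set 1632796_s_at had signals of 91.9, 153 and 159 on 3d replicates 1, 2 and 3, of 159, 174 and 157 at 30d, and of 159, 168 and 164 at 60d. Apart from the low value on 3d replicate 1, the arrays of all ages lay in 1 narrow range. EcR differed by 0.32 ± 0.19 in 60d against 3d and by 0.32 ± 0.19 in 30d against 3d, and neither was called (adjusted p = 0.269 and 0.193). Without 3d replicate 1 these differences were 0.07 and 0.06 (adjusted p = 0.69 and 0.669). Between 60d and 30d the difference was 0.00 ± 0.19 (adjusted p = 0.99).

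usp encodes ultraspiracle, the partner of EcR and the fly counterpart of vertebrate retinoid X receptors. Its probe set 1622981_at had signals of 400, 299 and 354 at 3d, 253, 268 and 243 at 30d, and 332, 253 and 334 at 60d. All 30d arrays were below all 3d arrays, while the 60d arrays spread over both ranges. The mean signal was 255 ± 12.3 in 30d brains and 351 ± 50.4 in 3d brains (SD, n = 3 each), and the signal fell by 26.8% (adjusted p = 0.0429). In whole brains, fewer cells that express a gene and less RNA per cell cannot be told apart. The usp difference was -0.20 ± 0.16 in 60d against 3d and 0.25 ± 0.16 in 60d against 30d, and neither was called (adjusted p = 0.421 and 0.453).

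The usp call depended on which arrays were in the fit and on the processing, and was lost in 10 of 19 alternatives. It was lost without 3d replicate 1 (adjusted p = 0.0774), 3d replicate 3 (0.112), 30d replicate 1 (0.107), 30d replicate 2 (0.0897), 30d replicate 3 (0.131) or 60d replicate 3 (0.059). It held when 3d replicate 2, 60d replicate 1 or 60d replicate 2 was the array dropped (0.0302, 0.0353 and 0.0261). With quantile normalization the difference was -0.39 (adjusted p = 0.0642), and with median centring -0.71 (adjusted p = 0.011). The call was also lost with no filter (0.0623), with the replicate number in the model (0.0538) and without the first arrays of 3d and 60d (0.0501). The direction was the same in all 19 alternatives run, in which usp ranged from -0.71 to -0.35.

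br (broad) encodes a family of BTB zinc-finger transcription factors made by alternative splicing, which act early in the response and set pupal fate. The brightest of its probe sets, 1635691_at, had signals of 1224, 932 and 853 at 3d, 1234, 1227 and 1539 at 30d, and 1237, 1355 and 1382 at 60d. Every array of the later ages was above every 3d array, but 3d replicate 1 was close to the lowest of them. Its difference was 0.42 ± 0.17 in 60d against 3d and 0.42 ± 0.17 in 30d against 3d, just short of the threshold in the second (adjusted p = 0.115 and 0.0608). Without 3d replicate 1 both were called, at 0.57 each (adjusted p = 0.0232 in 60d against 3d and 0.0105 in 30d against 3d). In that setting 21.6% and 60% of all probe sets were called in the same comparisons. Quantile normalization also called both, at 0.57 and 0.61 (adjusted p = 0.0487 and 0.0195), whereas median centring gave 0.25 and 0.16 (adjusted p = 0.358 and 0.466).

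Of the other tested br probe sets, 1626996_s_at had signals of 108, 127 and 108 at 3d, 132, 137 and 150 at 30d, and 119, 135 and 183 at 60d. The set 1637312_a_at had 87.9, 117 and 111 at 3d, 145, 127 and 141 at 30d, and 136, 105 and 116 at 60d. On both, every 30d array was above every 3d array, while 60d overlapped 3d. They differed by 0.32 ± 0.17 and 0.18 ± 0.16 in 60d against 3d (adjusted p = 0.215 and 0.456). For 30d against 3d they differed by 0.29 ± 0.17 and 0.40 ± 0.16 (adjusted p = 0.182 and 0.0626). The 3 tested br sets, 1635691_at first, differed by -0.00 ± 0.17, 0.03 ± 0.17 and -0.22 ± 0.16 in 60d against 30d, and none was called (adjusted p = 0.993, 0.919 and 0.499). The dim br probe set 1636931_at had signals of 26.6, 32.3 and 25.6 at 3d, 43.5, 47.0 and 44.9 at 30d, and 35.7, 37.8 and 32.1 at 60d. Its 30d arrays stood above those of both other ages. Without the filter its difference in 30d against 3d was 0.67 ± 0.15 (adjusted p = 0.0154). In that setting 34.5% of all probe sets were called, and their median change was 0.34. The second dim set, 1629683_at, had 15.4, 31.8 and 26.2 at 3d, 35.8, 36.5 and 38.5 at 30d, and 31.4, 28.9 and 44.8 at 60d. All 5 br probe sets had higher means at 30d than at 3d, and in each of the 5 the 30d and 3d arrays did not overlap. That was the case for 59.5% of all tested probe sets, which do not include the dim br sets 1636931_at and 1629683_at. The 5 br sets share their gene, so they are not 5 independent measurements. The correlation between pairs of br probe sets over the 9 arrays ran from 0.24 to 0.81, as a description of points that share their arrays.

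Eip78C (E78) encodes a nuclear receptor related to E75. Its probe set 1640770_a_at was dim, at 26.8, 54.9 and 44.6 at 3d, 44.4, 50.8 and 44.6 at 30d, and 35.5, 51.0 and 42.1 at 60d. Only 1 array exceeded the filter value, and the ages overlapped. Without the filter the differences were 0.07 ± 0.24 in 60d against 3d and 0.20 ± 0.24 in 30d against 3d (adjusted p = 0.875 and 0.512).

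ftz-f1 encodes an orphan nuclear receptor that, in its beta form, gives prepupal tissues their competence to respond to later hormone pulses. Its probe set 1640821_at had signals of 274, 427 and 399 at 3d, 434, 384 and 347 at 30d, and 373, 342 and 409 at 60d. The second set, 1624520_a_at, had 276, 307 and 308 at 3d, 328, 310 and 263 at 30d, and 264, 252 and 288 at 60d. Ages overlapped on both sets. The 60d against 3d differences were 0.05 ± 0.18 and -0.15 ± 0.14 (adjusted p = 0.866 and 0.489). For 30d against 3d they were 0.10 ± 0.18 and 0.01 ± 0.14 (adjusted p = 0.666 and 0.952), and both were negative with median centring, at -0.16 and -0.25. Without 3d replicate 1 they were -0.10 and -0.04, and 1640821_at was -0.14 in 60d against 3d (adjusted p = 0.582, 0.818 and 0.464).

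Eip93F (E93) encodes a transcription factor that directs adult differentiation and the removal of larval tissues at metamorphosis. Its brighter probe set 1624441_at had signals of 968, 859 and 751 at 3d, 1107, 970 and 1054 at 30d, and 912, 950 and 887 at 60d. The lowest 30d array lay just above the highest 3d array, and all 60d arrays were below all 30d arrays. The set 1635485_at had 181, 138 and 127 at 3d, 200, 205 and 205 at 30d, and 139, 223 and 184 at 60d. Here too 30d exceeded 3d on every array, and the 60d arrays spread from the level of 3d to above that of 30d. The 30d against 3d differences were 0.29 ± 0.14 and 0.47 ± 0.19, not called (adjusted p = 0.121 and 0.0636). Without 3d replicate 1 both were called, at 0.38 and 0.61 (adjusted p = 0.0337 and 0.017), and 1635485_at was called without 60d replicate 1 or 60d replicate 2 (adjusted p = 0.0311 and 0.0404). In those 3 settings 60%, 50.2% and 48.9% of all probe sets were called. Both sets were also called with array weights (adjusted p = 0.0297 and 0.00195). The same held without the first arrays of 3d and 60d (adjusted p = 0.019 and 0.00201). A fit of the 30d and 3d arrays alone called 1635485_at (adjusted p = 0.0357). The shares of all probe sets called were 67.8%, 69.8% and 48.7% there. With quantile normalization 1624441_at was called at 0.45 (adjusted p = 0.0266), and with median centring it was 0.03 (adjusted p = 0.904). Across 60d and 3d the sets differed by 0.10 ± 0.14 and 0.28 ± 0.19 (adjusted p = 0.659 and 0.326), and in 60d against 30d by -0.19 ± 0.14 and -0.19 ± 0.19 (adjusted p = 0.515 and 0.606).

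**Figure D2:**
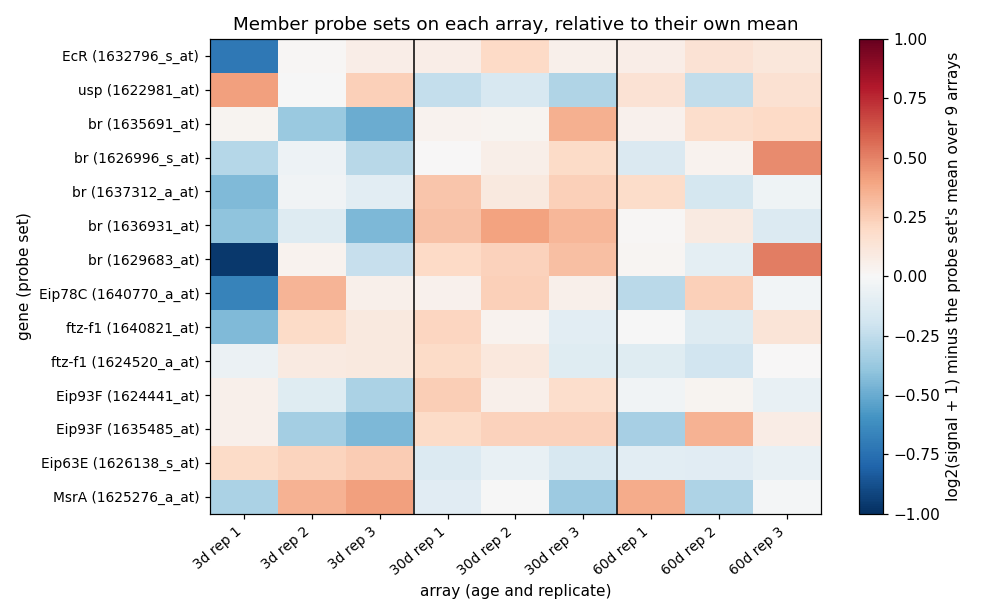
Level of each member probe set, and of MsrA, on each array, as log2(signal + 1) minus that probe set's mean over the 9 arrays. Columns are arrays by age and replicate, with lines between ages. The first column, 3d replicate 1, is the lowest array for 6 of the 13 member probe sets, EcR among them, while Eip63E is evenly high on the 3 arrays of 3d.

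Eip63E, named for its induction by ecdysone, encodes a cyclin-dependent kinase of the PFTAIRE group that is needed for development. Its probe set 1626138_s_at separated 3d from both later ages with little spread among replicates. Signals were 438, 448 and 460 at 3d, 350, 364 and 344 at 30d, and 356, 356 and 365 at 60d. All 6 arrays of the later ages lay in 1 narrow band below the 3 arrays of 3d, and 3d replicate 1 stood close to its replicates here. The mean was 353 ± 10.2 in 30d brains and 449 ± 10.8 in 3d brains (SD, n = 3 each), a difference of -0.35 ± 0.13 that was called (adjusted p = 0.045). In 60d brains it was 359 ± 4.87, a difference of -0.32 ± 0.13 from 3d that was not called (adjusted p = 0.111). Its own SD at the 3 ages was 0.03, 0.04 and 0.02 on the log2 scale, below the SE of 0.13, because limma draws each probe set's variance toward that of all probe sets. Eip63E at 60d and at 30d differed by 0.03 ± 0.13 (adjusted p = 0.919).

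The Eip63E call in 30d against 3d was close to the threshold and was lost without 3d replicate 2 (adjusted p = 0.0799), 3d replicate 3 (0.125), 30d replicate 1 (0.124), 30d replicate 2 (0.108), 30d replicate 3 (0.14) or 60d replicate 3 (0.0705). It held when 3d replicate 1 (0.028), 60d replicate 1 (0.0337) or 60d replicate 2 (0.0398) was dropped. Quantile normalization gave -0.24 (adjusted p = 0.121) and median centring -0.61 (adjusted p = 0.00769). The call was also lost with no filter (0.0649) and with the replicate number in the model (0.0753), and so in 9 of 19 alternatives. Between 60d and 3d Eip63E was called with median centring (-0.49, adjusted p = 0.0417) and with array weights (-0.31, adjusted p = 0.0398). It was also called without the first arrays of 3d and 60d (-0.33, adjusted p = 0.0388). In those settings 14.4%, 42.9% and 52.7% of all probe sets were called.

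Among the members' brightest probe sets Eip63E also had the smallest p in the F-test over the 3 ages, although it was not called (adjusted p = 0.0792). The 3 genes whose levels followed it most closely over the 9 arrays, among 8115 searched, were Gdh, the mitochondrial glutamate dehydrogenase, with Pearson r = 0.988, CG14015 with r = 0.986 and Scgalpha, a sarcoglycan, with r = 0.982. Their step was larger than that of Eip63E. Between 60d and 3d Gdh, CG14015 and Scgalpha differed by -0.93 ± 0.14, -0.99 ± 0.16 and -0.93 ± 0.14. They were picked for their likeness, so these values are a description.

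MsrA, formerly Eip71CD, encodes a methionine sulfoxide reductase, which repairs oxidised methionine in proteins and was first found as an ecdysone-induced protein in cultured cells. Its probe set 1625276_a_at had signals of 278, 442 and 461 at 3d, 319, 345 and 270 at 30d, and 447, 279 and 341 at 60d. The ages overlapped, with 3d replicate 1 far below its replicates. The difference was -0.14 ± 0.22 in 60d against 3d and -0.31 ± 0.22 in 30d against 3d (adjusted p = 0.698 and 0.264). Without 3d replicate 1 it was -0.54 in 30d against 3d (adjusted p = 0.034), where 60% of all probe sets were called. Without the first arrays of both 3d and 60d it was -0.55 in 60d against 3d (adjusted p = 0.0156), where 52.7% of all probe sets were called.

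The members' calls were set beside the share of all probe sets called. In 60d against 3d limma called 0 of 10 members, where 13.6% of all tested probe sets were called, 6.64% higher and 6.92% lower. The members with an unadjusted p below 0.05 were 2 of 10, br 1635691_at higher and Eip63E lower, against 32.2% of all. Leaving out both first arrays gave 3 calls (br 1635691_at and Eip93F 1635485_at higher, Eip63E lower), where 52.7% of all were called, and array weights gave 4, where 42.9% were. Quantile normalization and median centring gave 1 each, where 13.1% and 14.4% of all were called. The arrays of the 2 ages did not overlap for 2 of 10 members, against 27.6% of all tested probe sets. The members' median change was 0.14, beside 0.12 for all.

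In 30d against 3d limma called 2 of 10 members, 0 higher and 2 lower, where 44.3% of all tested probe sets were called, 28.2% higher and 16.1% lower. With quantile normalization the 2 calls were instead higher, br 1635691_at and Eip93F 1624441_at (38.1% of all called). The count was 4 when 3d replicate 1 was dropped (60% of all called), 4 without 60d replicate 1 (50.2%) and 1 without 3d replicate 2 (37.6%). It was 0 without 3d replicate 3 (17.7%), 60d replicate 3 (37.5%) or 30d replicate 1, 2 or 3 (25.4%, 20.3% and 18.6%). The arrays of 30d and 3d did not overlap for 7 of 10 members, against 59.5% of all. The members' median change was 0.29 and that of all tested probe sets 0.19, and 8 of the 10 were positive. The 60d against 30d comparison gave 0 of 10 members called by limma (0 also at an unadjusted p under 0.05), where 0.368% of all were called. Array weights gave 4 calls in that comparison, at a share of 40.4% of all probe sets. The arrays did not overlap for 1 of 10, Eip93F 1624441_at, against 27.4% of all. The F-test over the 3 ages called 0 of 10 members and 32.2% of all tested probe sets, with br 1635691_at and Eip63E at an unadjusted p under 0.05. It called 2 without 3d replicate 1, where 49.9% of all were called.

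**Figure D3:**
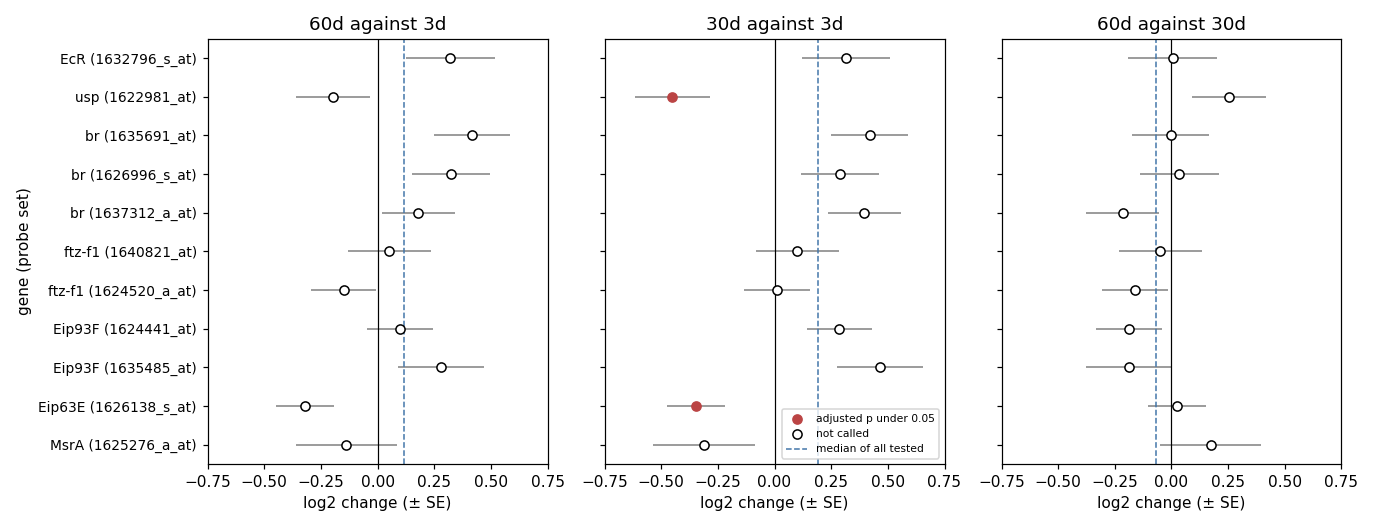
Change of each tested member probe set, and of MsrA, in the 3 comparisons, as log2 difference with its SE from limma. Filled points have an adjusted p under 0.05, and the dashed line is the median of all tested probe sets. Filled points appear only in 30d against 3d, for usp at -0.45 and Eip63E at -0.35.

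Among genes for the synthesis, uptake and turnover of the hormone, those of synthesis and sterol supply were called in both directions in 30d against 3d. Of 9 tested probe sets, for 9 of 16 genes listed, 4 were higher, 3 lower and 2 not called, with a median of 0.02, beside 28.2% higher and 16.1% lower of all tested probe sets. The rise was seen for spok, a P450 enzyme of early ecdysteroid synthesis, at 0.81 ± 0.18, for nvd, the oxygenase that starts the pathway from cholesterol, at 0.64 ± 0.19, and for shd, which makes the active hormone, at 0.68 ± 0.21 (adjusted p = 0.0081, 0.0202 and 0.0245). Cyp18a1, which inactivates the hormone, was higher by 0.46 ± 0.17 (adjusted p = 0.0438), a call lost in 9 of 19 alternatives, and the importer Oatp74D differed by -0.49 and was not called (adjusted p = 0.0562). The probe sets of spok, nvd and shd were dim, with 3d means of 5.81, 5.92 and 5.59 on the log2 scale. Over all probe sets the median change was 0.34 with no filter and 0.05 with the stricter filter, so dimmer sets lay higher in general. shd exceeded the filter on 1 of the 3d arrays and on 3 of the 30d arrays, so it was tested because of the age at which it was high. With no filter its adjusted p was 0.0393. The fall was seen for ecd (ecdysoneless), needed for hormone production, at -0.61 ± 0.14, for Npc1a, which moves sterols out of lysosomes, at -0.52 ± 0.16, and for the lipid carrier Start1 at -0.53 ± 0.18 (adjusted p = 0.00876, 0.0242 and 0.0318). The calls of spok and ecd held in all alternatives run, 18 and 19 of them. Those of nvd and shd were each lost in 6, quantile normalization and median centring among them, and those of Npc1a and Start1 in 4 each. The number of higher calls was 1 without 3d replicate 3 or any 1 of the 30d arrays (17.7% to 25.4% of all called in either direction). Median centring gave 1 higher and 4 lower (37% of all called), and quantile normalization 2 higher and 3 lower (38.1%). The number of lower calls was 1 without 3d replicate 3, 30d replicate 2 or 30d replicate 3 (17.7% to 20.3%). By 60d, against 3d, limma called 0 of 9, with the smallest p for spok at 0.52 ± 0.18 (adjusted p = 0.076). Without both first arrays 3 were higher and 3 lower, where 52.7% of all probe sets were called. Without 60d replicate 1 alone 2 were higher and 1 lower, where 28.1% of all were called. Without 3d replicate 1 there was 1 lower call, where 21.6% of all were called. Between 60d and 30d 0 of 9 were called, with nvd at -0.49 ± 0.19 (adjusted p = 0.286).

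Among 6 tested cofactors of the receptor and the membrane receptor DopEcR, only trr was called. This histone methyltransferase, a coactivator of EcR, had means of 7.01 ± 0.21, 6.10 ± 0.10 and 6.22 ± 0.31 at 3d, 30d and 60d (SD of log2 values, n = 3). It fell by 0.91 ± 0.18 in 30d against 3d (adjusted p = 0.00542), in all 19 alternatives, and by 0.79 ± 0.18 in 60d against 3d (adjusted p = 0.0156). The second call was lost without 60d replicate 3 and in a fit of the 3d and 60d arrays alone (highest adjusted p = 0.0667). A second trr probe set did not pass the filter. The coactivator tai, the corepressor Smr, rig, bon and DopEcR were not called in any comparison. Of all tested probe sets 6.92% were called lower in 60d against 3d and 16.1% in 30d against 3d. For 30d against 3d 1 probe set of this list was called higher with quantile normalization (38.1% of all called) and 1 without 3d replicate 1 (60%). Between 60d and 30d 0 of 6 were called, with tai at -0.25 ± 0.18 (adjusted p = 0.484).

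Of 18 tested probe sets for other ecdysone response genes, 1 was higher and 17 not called in 60d against 3d, and 5 were higher and 1 lower in 30d against 3d. Over all tested probe sets 13.6% were called in the first comparison and 44.3% in the second. The clearest was mamo 1632900_at, for a BTB zinc-finger factor of mushroom body neurons, with means of 6.75 ± 0.13, 7.69 ± 0.20 and 7.72 ± 0.22 at 3d, 30d and 60d. It rose by 0.97 ± 0.17 in 60d against 3d and by 0.94 ± 0.17 in 30d against 3d (adjusted p = 0.00408 and 0.00378), in all 18 alternatives run for each. The brightest mamo set, 1629700_at, was called in neither comparison (0.38 ± 0.30 and 0.47 ± 0.30, adjusted p = 0.389 and 0.206). In 60d against 3d the mamo sets 1638406_at and 1638749_at were not called either (adjusted p = 0.146 and 0.136). For 30d against 3d chinmo 1636985_s_at, for a factor of neuronal timing, rose by 0.46 ± 0.16 and Fbp2 by 0.61 ± 0.22 (adjusted p = 0.036 and 0.0439). The mamo sets 1638749_at and 1638406_at rose by 0.58 ± 0.16 and 0.54 ± 0.19 (adjusted p = 0.0152 and 0.0416). The 5 higher calls thus came from mamo, chinmo and Fbp2 alone. The other tested chinmo sets differed by 0.19 ± 0.13 and 0.13 ± 0.14 and were not called. Kr-h1, a transcription factor that also responds to juvenile hormone, fell by 0.47 ± 0.16 (adjusted p = 0.0366). The calls of mamo 1638749_at, chinmo, Fbp2 and Kr-h1 were lost in 4, 9, 10 and 6 alternatives, and that of mamo 1638406_at in 10. Median centring gave 1 higher and 2 lower (37% of all called), and quantile normalization 2 higher and 1 lower (38.1%). The count of higher calls was 1 without 3d replicate 3 (17.7% of all called). It was 2 without 3d replicate 2, 60d replicate 3, 30d replicate 2 or 30d replicate 3 (37.6%, 37.5%, 20.3% and 18.6%). It was 3 without 30d replicate 1 (25.4%), and 9 without 3d replicate 1 (60%). The lower call was lost without 3d replicate 3, 60d replicate 3 or any 1 of the 30d arrays. Against 3d, 60d gave 3 higher calls and 1 lower call without 3d replicate 1, where 21.6% of all probe sets were called. Between 60d and 30d 0 of 18 were called, with the smallest p for Kr-h1 at 0.36 ± 0.16 (adjusted p = 0.336).

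Only 4 of 9 matched probe sets of the late ecdysone-induced 71E cluster, genes known from the larval salivary gland, passed the filter. At 30d, against 3d, 3 of them rose, Eig71Ek by 0.93 ± 0.20, Eig71Ej by 0.78 ± 0.23 and Eig71Ea by 0.66 ± 0.20 (adjusted p = 0.00654, 0.0208 and 0.0237), where 28.2% of all tested probe sets were called higher. Their 3d means were 5.89, 7.42 and 6.41 on the log2 scale, and Eig71Ek exceeded the filter on 2 of the 3d arrays. Over all probe sets the median change was 0.34 with no filter and 0.05 with the stricter filter. Eig71Ek kept its call in all 19 alternatives, and the others lost theirs in 6 and 7. Without 3d replicate 2, 3d replicate 3 or any 1 of the 30d arrays the count was 1 (17.7% to 37.6% of all called), as it was with median centring (37%). At 60d, against 3d, Eig71Ek rose by 0.64 ± 0.20 (adjusted p = 0.0487), a call lost in 13 of 19 alternatives. In that comparison the count was 0 without any 1 of 3d replicates 2 and 3, 30d replicates 1, 2 and 3, and 60d replicates 2 and 3 (4.28% to 13.7% of all called). It was 2 without 3d replicate 1 (21.6%) and 4 without 60d replicate 1 (28.1%). For 60d against 30d 0 of 4 were called, with Eig71Ed at -0.53 ± 0.29 (adjusted p = 0.4).

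Of 18 tested probe sets for the other nuclear receptors, 8 were higher, 2 lower and 8 not called in 30d against 3d, with a median of 0.34, beside 28.2% higher and 16.1% lower of all tested probe sets. The orphan receptor kni (knirps) rose by 0.76 ± 0.16 (adjusted p = 0.0064), in all 19 alternatives. The Hr39 probe sets disagreed: 1631402_s_at was higher by 0.64 ± 0.17 (adjusted p = 0.0147), and 1630002_s_at differed by -0.15 ± 0.15 and was not called. A dim Hr39 set, 1632845_at, differed by 0.77 ± 0.18 (adjusted p = 0.0091, and 0.0185 with no filter). It exceeded the filter on 3 of the 30d arrays and on 0 of the 3d arrays, as the called svp set 1635192_at did on 2 and 0, so both were tested because of the ages at which they were high. Only 16 alternatives gave a value for that Hr39 set. The receptor gene eg (eagle) rose by 0.65 ± 0.18 (adjusted p = 0.0156), lost in 4 of 18 alternatives. Hr78 and ERR, a regulator of carbohydrate metabolism, fell by 0.61 ± 0.16 and 0.54 ± 0.15 (adjusted p = 0.0147 and 0.0169), and each lost its call in 3 of 19 alternatives. Median centring gave 2 higher and 2 lower (37% of all called), and quantile normalization 5 higher and 2 lower (38.1%). Dropping 3d replicate 3 left 3 higher calls (17.7%), and dropping 30d replicate 1, 2 or 3 left 4, 2 or 4 (25.4%, 20.3% and 18.6%). The count of lower calls was 0 without 3d replicate 3 or 30d replicate 2, and 1 without 30d replicate 1 or 3. At 60d, against 3d, only kni was called, at 0.59 ± 0.16 (adjusted p = 0.031), and that call was lost in 10 of 19 alternatives, those without 3d replicate 3, any 1 of the 30d arrays, 60d replicate 2 or 60d replicate 3 included. Without 60d replicate 1 the count was 3, where 28.1% of all probe sets were called. For 60d against 30d 0 of 18 were called, with Hr39 1632845_at at -0.51 ± 0.18 (adjusted p = 0.261). Leaving out 60d replicate 2 gave 1 lower call, where 5.23% of all were called.

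**Figure D4:**
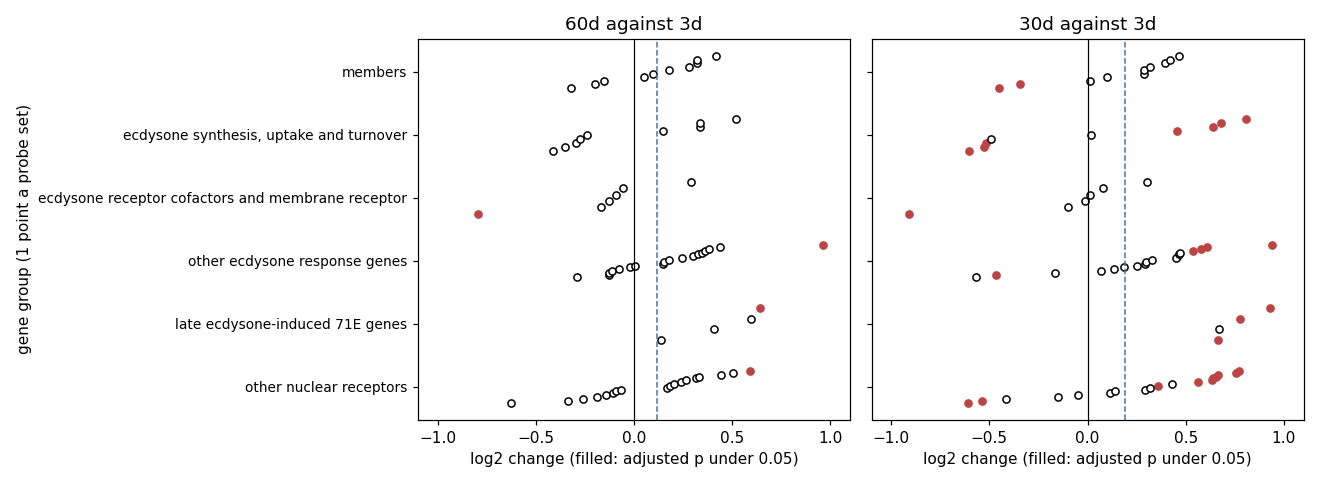
Change of every tested probe set of the members and of 5 groups of related genes, in 60d against 3d (left) and 30d against 3d (right), as log2 difference. Filled points have an adjusted p under 0.05, and the dashed line is the median of all tested probe sets. Calls lie on both sides of 0 for hormone synthesis genes, other ecdysone response genes and nuclear receptors in 30d against 3d.

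Marker genes were measured beside these values. All 4 matched neuron markers and all 6 matched glia markers exceeded the filter, as did 6 of 6 retina, 5 of 6 head fat body, 6 of 7 haemocyte and 4 of 5 muscle markers. The summed signal of the neuron markers was 3164 to 3418 at 3d, 2612 to 2937 at 30d and 2448 to 2826 at 60d. Of the 5 tested neuron probe sets only Csp was called, at -0.64 in 60d against 3d and -0.61 in 30d against 3d, with nSyb at -0.76 and -0.65 and elav at -0.04 and 0.07. In the same comparisons brp 1636216_at was at 0.15 and 0.23, and brp 1625489_at at -0.14 and -0.09. The glia sum was 7635 to 8895 at 3d, 5693 to 6468 at 30d and 5947 to 7269 at 60d. The retina sum was 9870 to 10836 at 3d, 8376 to 9242 at 30d and 7074 to 7669 at 60d. All 3 sums were thus lower on every array of the later ages than on every 3d array, but not every gene was. In 60d against 3d the glia markers moody and wrapper were higher (0.35 and 0.25, not called). The glia markers repo, Gs2, alrm and nrv2 were lower, and only nrv2 was called. In 30d against 3d the retina markers Arr2 and Arr1 differed by 0.02 and -0.10 and were not called. The retina markers trp, trpl, retinin and inaD were called lower there. Of these, retinin exceeded the filter on 3 arrays of 3d and on 0 of 30d and 60d. It was thus tested because of the age at which it was high. The haemocyte sum was 1404 to 1691 at 3d, 774 to 868 at 30d and 923 to 1616 at 60d. Its brightest genes were Col4a1 and vkg, with 3d means of 9.44 and 8.93 on the log2 scale. In 60d against 3d vkg was called lower (-1.11, adjusted p = 0.0115) and NimC1 higher (1.09, adjusted p = 0.032). PPO1 and PPO2 exceeded the filter on 3 arrays of 3d and 0 of 30d. The fat body sum was 5650 to 6945 at 3d, 4540 to 5973 at 30d and 4557 to 11350 at 60d. The muscle sum was 268 to 327 at 3d, 358 to 400 at 30d and 515 to 667 at 60d, without overlap between ages. Its genes did not all follow that order. In 30d against 3d up and TpnC41C were called higher (0.53 and 0.69), and Mp20 and bt were not called (0.10 and 0.27). In 60d against 30d Mp20 and bt were called higher, and up and TpnC41C were lower (-0.05 and -0.34, not called). The haemocyte marker eater, the fat body marker Fbp1 and the muscle marker Act88F did not pass the filter, nor did jhamt, which marks the corpora allata. The neuron, glia, retina and haemocyte sums differed between 30d and 3d in the direction of usp and Eip63E, and their part in those differences was not tested.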

How the data were processed

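The deposited table gives 1 signal intensity per probe set and array, on a linear scale. GCRMA and MAS5 appear in the submitters' processing notes without a version or role, and the trimmed mean (2% at each end) was 150.002 on every array, computed from the deposited intensities. Values were taken as log2(signal + 1), and 183 control probe sets were left out. The filter kept a probe set when 3 or more arrays were above the percentile set for it (40, over every value). Names came from the platform annotation and a RefSeq gene table (Release 6). No genome or sequence table was used, so no coordinates or sequences are given. limma 3.58.1 in R 4.3.3 fitted age means to all 9 arrays (6 residual and 6.12 prior degrees of freedom), with two-sided tests and Benjamini-Hochberg adjustment over all 12226 probe sets. The procedure was run on simulated data with independent noise for each probe set. That simulation had no array-wide shift and no degraded array, so it does not test the procedure under such conditions. Figures were drawn with matplotlib 3.10.9. The number of arrays limits the precision.

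Members and gene lists were chosen with earlier results of these data known. All member probe sets were named, with up to 3 called genes per list and direction, or the one with the smallest p. Cyp18a1, Oatp74D, svp, the further chinmo, mamo and Hr39 sets and single marker genes were named after their values were seen. Alternatives covered normalization, filter, pseudocount, probe sets per gene, arrays in the fit, array weights and the replicate number. Their use on the lists was chosen after seeing the data. A probe set annotated to both Eip63E and CG10038 was left out.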

Additional observations from a re-analysis of the deposited data

How the results depend on the processing

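The number of called member probe sets changed with the processing. In 30d against 3d it was 2 as reported (44.3% of all probe sets called), 1 with no filter (br 1636931_at, 34.5%), 5 with array weights (67.8%), 4 without the first arrays of 3d and 60d (69.8%), and 0 to 4 with any 1 array left out. For 60d against 3d it was 0 as reported, 1 with quantile normalization (13.1%), 1 with median centring (14.4%), 4 with array weights (42.9%), 3 without both first arrays (52.7%), and 0 to 1 with any 1 array left out. For 60d against 30d it was 0 as reported and 4 with array weights (40.4%), and 0 with any 1 array left out. The F-test over the 3 ages called 0 as reported, 1 with quantile normalization (29.1%), 2 with median centring (28.8%), 1 with no filter (18%), 7 with array weights (75.7%), 3 without both first arrays (65.8%), and 0 to 2 with any 1 array left out. Array weights gave 60d replicate 3 a weight of 5.80 and 3d replicate 1 a weight of 0.157. Under a replicate block the counts were 0 in every comparison, 0 against 2 for 30d against 3d (38.2% of all called). The labels do not say whether same-numbered arrays shared a batch or cohort. Deviations of same-numbered arrays from their age means correlated at -0.37 to 0.15, which cannot settle this with 3 arrays an age. For single members and MsrA, 526 of 615 recomputed changes kept direction and side of the threshold, 19 lost and 34 gained a call, and 36 uncalled changes turned sign. The cause was not tested. The calls lay near the threshold, with 3 arrays an age. The Eip78C and 2 br probe sets were too dim for the filter and were tested only without it.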
